A study of Rattus norvegicus with 5 samples.

Results

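The RNA of 7 respiratory chain genes that are encoded in mitochondrial DNA was examined in rat heart after myocardial infarction (MI). The members were taken by identifier, not by their values, as ENSRNOG00000030644 (Mt-nd1), ENSRNOG00000031033 (Mt-nd2), ENSRNOG00000029707 (Mt-nd4), ENSRNOG00000029971 (Mt-nd5), ENSRNOG00000031766 (Mt-cyb), ENSRNOG00000034234 (Mt-co1) and ENSRNOG00000030371 (Mt-co2), and all 7 were present among the 20646 rows of the expression table. The table gives identifiers only, so the names are those that came with the selection. All animals were male SD rats of 7 to 8 weeks, and the tissue was left ventricular wall. The Normal group consisted of normal rats without infarction, and no sham operation is described for it. In the other 4 groups the left anterior descending artery was ligated, and the hearts were left untreated (MI), injected in the infarcted area with SNAP, a nitric oxide donor (SNAP group), sutured over the infarct with the microchanneled hydrogel suture (DTMS group), or sutured and given SNAP through that suture (S-DTMS group, spelled S-DTNS in the sample labels). The methods give saline through the suture to a group called shank, which by its treatment appears to be DTMS. The labels place the sampling at 1 month, whereas the methods place it a week after therapy. The study describes its sequencing as done on biological replicates, but the table used here holds 1 column for each group, called a library below, and whether that column is 1 rat, a pool or 1 of several replicates is not given in the sources used here. Differences between groups therefore could not be set against the spread between rats, and no test was run.

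Oxidative phosphorylation in the inner mitochondrial membrane supplies most of the ATP of the beating heart. Its complexes are built from subunits of nuclear and of mitochondrial DNA. The mitochondrial genes are read without introns as long joint transcripts that are cut into single messages, and all 7 genes described here lie on the same strand. Because cardiomyocytes are packed with mitochondria, these messages rank among the most abundant of the heart. Mt-nd1, Mt-nd2, Mt-nd4 and Mt-nd5 encode membrane subunits of complex I, which oxidises NADH. Mt-cyb encodes cytochrome b of complex III, and Mt-co1 and Mt-co2 encode the catalytic core of complex IV, where oxygen is reduced.

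The deposited values are FPKM, a fragment count scaled to the length of the gene and to the library total, so that levels can be compared between genes. The whole fragments behind them could be worked out, with library totals between 16731024 in DTMS and 17379225 in SNAP. The 7 genes had whole lengths from 684 bases for Mt-co2 to 1830 bases for Mt-nd5. Between 74301 and 1398738 fragments stood behind each value of 6 genes, and between 1735 and 26561 behind those of Mt-nd4. Intervals from fragments cover counting error only, not the variation between rats. Defining markers of heart muscle and of other cell types were not analysed here, because the identifiers are not paired with names. In a piece of whole tissue, fewer cells of a type and less RNA per cell cannot be told apart.

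Mt-co1 was the most abundant of all 20646 rows in every library. Its FPKM was 37933 in Normal, 45428 in MI, 52093 in SNAP, 50737 in DTMS and 27440 in S-DTMS. The other gene of complex IV, Mt-co2, had an FPKM of 13196 in Normal, 23416 in MI, 27877 in SNAP, 24181 in DTMS and 14478 in S-DTMS. Mt-co2 was thus lowest in Normal, whereas Mt-co1 was lowest in S-DTMS, and both were highest in SNAP. Mt-cyb, the only gene of complex III in mitochondrial DNA, had an FPKM of 14354 in Normal, 18400 in MI, 19089 in SNAP, 19798 in DTMS and 10190 in S-DTMS.

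Among the genes of complex I, Mt-nd1 had an FPKM of 9888 in Normal, 13293 in MI, 12434 in SNAP, 12996 in DTMS and 6543 in S-DTMS. For Mt-nd2 the FPKM was 11870 in Normal, 12689 in MI, 12399 in SNAP, 11975 in DTMS and 6211 in S-DTMS. Mt-nd2 therefore lay within a narrow range in the first 4 libraries and was much lower in S-DTMS. Mt-nd5 reached an FPKM of 2901 in Normal, 3829 in MI, 4711 in SNAP, 5163 in DTMS and 2383 in S-DTMS. Mt-nd4 stood far below the rest, with an FPKM of 73.5 in Normal, 99.996 in MI, 1109 in SNAP, 711 in DTMS and 587 in S-DTMS. The highest library exceeded the lowest by 1.90-fold to 2.17-fold for the other 6 genes, but by 15.1-fold for Mt-nd4.

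**Figure D1:**
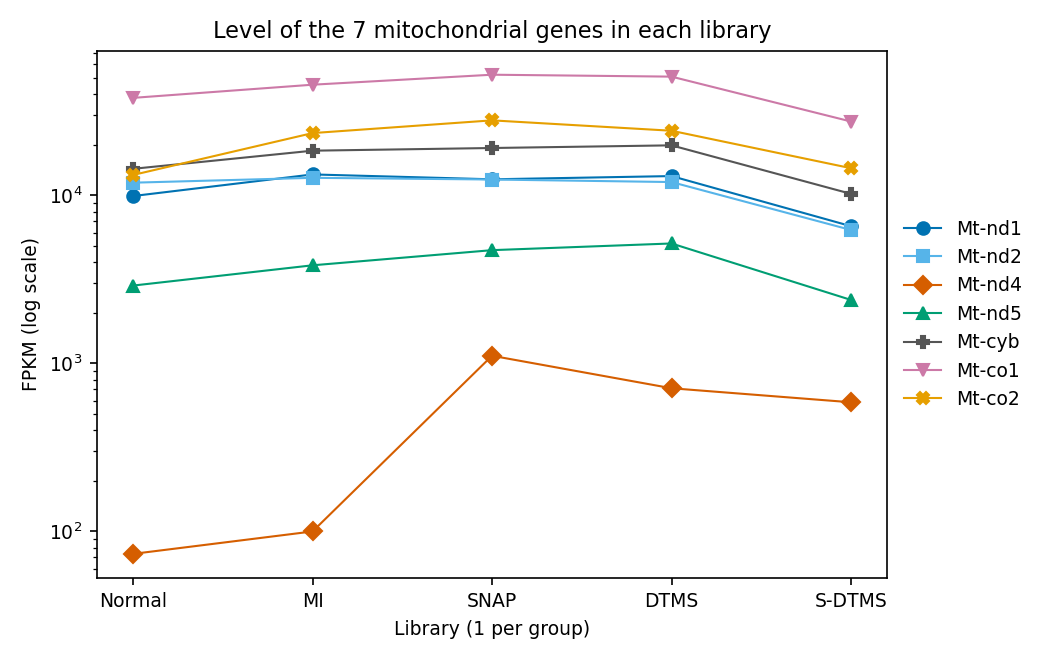
FPKM of the 7 genes on a log axis in each of the 5 libraries, 1 point per gene and library, with lines that only guide the eye. Of the 7 genes, 5 are lowest in S-DTMS, and Mt-nd4 lies apart from the rest, from 73.5 in Normal to 1109 in SNAP.

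The order of the levels was the same in all 5 libraries at its ends, with Mt-co1 first, Mt-nd5 sixth and Mt-nd4 last of the 7. In between, Mt-cyb stood above Mt-co2 in Normal and below it in the other 4 libraries, and Mt-nd2 stood above Mt-nd1 in Normal only. Counted among all rows, Mt-co2 ranked 5 in Normal and 3 in the other 4 libraries. Mt-nd1 ranked between 6 and 8, Mt-nd2 between 6 and 9, Mt-cyb 4 or 5, and Mt-nd5 between 11 and 22. The rank of Mt-nd4 was 1040 in Normal, 678 in MI, 47 in SNAP, 80 in DTMS and 133 in S-DTMS. Without replicates, no spread between animals can be set against neighbours in this order.

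Together the 7 genes held 14.5% of the FPKM sum of the Normal library, 18.1% in MI, 20.5% in SNAP, 19.8% in DTMS and 11.5% in S-DTMS. The 3 infarcted libraries without the loaded suture were thus highest, and S-DTMS was the lowest of all, with a difference of -2.92 percentage points from Normal and -6.57 from MI. By fragments, the share of the library total was 11.1% in Normal (95% Wilson interval 11.11% to 11.14%), 14.0% in MI (14.01% to 14.04%), 15.6% in SNAP (15.61% to 15.64%), 15.3% in DTMS (15.27% to 15.30%) and 8.18% in S-DTMS (8.17% to 8.19%). The order of the 5 libraries was the same on both scales. No pair of intervals overlapped, but at this depth they were narrow. They leave out the variation between rats, so non-overlap does not show that the groups differ.

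**Figure D2:**
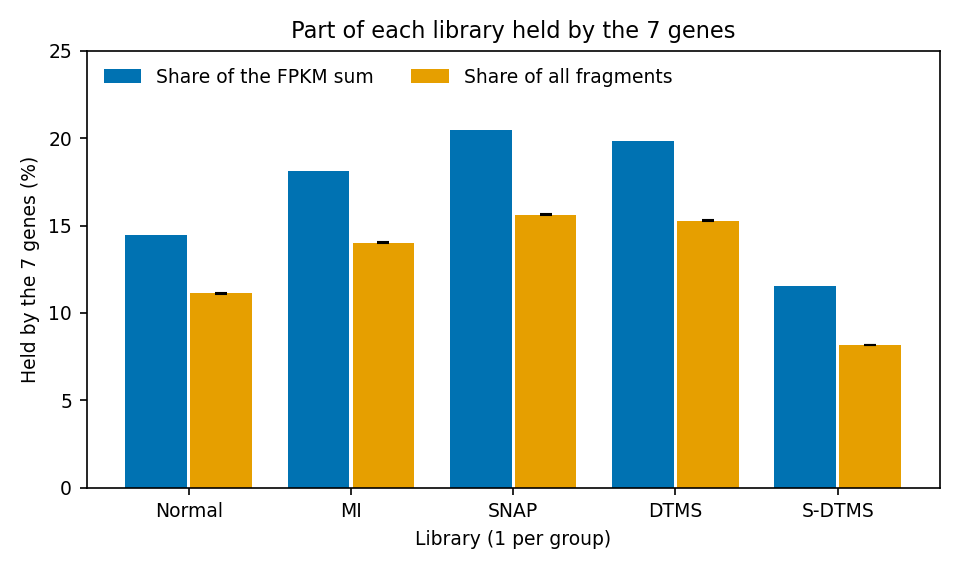
Percent of the FPKM sum (blue) and of all fragments (orange, with 95% Wilson intervals for counting error) held by the 7 genes in each of the 5 libraries. The bars are highest in SNAP, at 20.5% and 15.6%, and lowest in S-DTMS, at 11.5% and 8.18%.

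FPKM sums of whole libraries need not be equal, and the part of the 7 genes in their inequality differed between comparisons. From MI to S-DTMS the sum over all rows dropped by 59331, and the sum over the 7 genes dropped by 49325, which is 83.1% of it. From Normal to MI the sum was higher by 23131, while the 7 genes alone were higher by 26939 and all other rows together were lower by 3809. From MI to SNAP and from MI to DTMS the 7 genes ran against the sum, which dropped by 12355 in SNAP and dropped by 13727 in DTMS, while the 7 genes were higher by 12557 and 8406. The 7 genes together were 1.30-fold as high in MI as in Normal, 1.11-fold in SNAP and 1.07-fold in DTMS as in MI, and 0.579-fold in S-DTMS as in MI.

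Complex IV held most of this RNA. Mt-co1 and Mt-co2 together made up 8.20% of the FPKM sum in Normal, 10.6% in MI, 12.6% in SNAP, 11.8% in DTMS and 7.14% in S-DTMS. The 4 genes of complex I made up 3.97% in Normal, 4.63% in MI, 4.83% in SNAP, 4.87% in DTMS and 2.68% in S-DTMS. Mt-cyb made up 2.30% in Normal, 2.85% in MI, 3.01% in SNAP, 3.13% in DTMS and 1.74% in S-DTMS. All 3 groups of genes were lowest in S-DTMS. Complex IV was highest in SNAP, whereas complex I and Mt-cyb were highest in DTMS.

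MI was first read against Normal. Infarction and the chest operation cannot be told apart in this comparison. All 7 genes were higher in MI. The ratio of MI to Normal was 1.77 for Mt-co2, 1.36 for Mt-nd4, 1.34 for Mt-nd1, 1.32 for Mt-nd5, 1.28 for Mt-cyb, 1.20 for Mt-co1 and 1.07 for Mt-nd2. On the scale of log2(FPKM + 1), used for all changes below, the median change of the 7 genes was 0.40, beside a median of -0.12 over the 13769 rows that reached an FPKM of 1 in at least 1 library. Of these 13769 rows, 64.5% were lower in MI. The 52 other rows with a mean FPKM of at least 1000 had a median of 0.10. A log2 change of at least 1, the limit used for counting, was reached by none of the 7 genes, beside 6.96% of all rows. With a limit of 0.5 it was reached by Mt-co2 alone, beside 22.9% of all rows. The change of Mt-co2, 0.83, exceeded that of 96.9% of all rows, and that of Mt-nd2, 0.096, exceeded 74.6%.

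SNAP injection and the suture without SNAP were each read against the same MI library. No injection or saline is described for MI. In SNAP against MI, Mt-nd5 was higher by 0.30 on the log2 scale, Mt-co2 by 0.25, Mt-co1 by 0.20 and Mt-cyb by 0.053, while Mt-nd1 was at -0.096 and Mt-nd2 at -0.033. In DTMS against MI, Mt-nd5 was higher by 0.43, Mt-co1 by 0.16, Mt-cyb by 0.11 and Mt-co2 by 0.046, with Mt-nd1 at -0.033 and Mt-nd2 at -0.084. The direction of Mt-nd1 and Mt-nd2 depended on the scale in both comparisons. With median-of-ratios scaling, in which a library is divided by the median, over genes, of its values relative to the geometric mean of the 5 libraries, all 7 genes were higher in SNAP and in DTMS than in MI.

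Mt-nd4 was the exception in size. It was 11.1-fold as high in SNAP and 7.11-fold as high in DTMS as in MI, with log2 changes of 3.46 and 2.82. Of the 7 genes it alone passed the limit of 1 in these comparisons, beside 6.33% of all rows for SNAP and 4.65% for DTMS. It also was the only gene of the 7 past 0.5, beside 23.4% and 17.1% of all rows. The median change of the 7 genes was 0.20 for SNAP and 0.11 for DTMS, and the median over all rows was -0.14 and -0.06. The medians of the 7 genes were 0.39 and 0.22 with median-of-ratios scaling, and 0.13 and 0.076 without Mt-nd4.

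In S-DTMS against MI, 6 of the 7 genes were lower and Mt-nd4 was higher, while 39.2% of all rows were lower. S-DTMS had 0.489 times the MI level of Mt-nd2, 0.492 times that of Mt-nd1, 0.554 times that of Mt-cyb, 0.604 times that of Mt-co1, 0.618 times that of Mt-co2 and 0.622 times that of Mt-nd5. The genes of complex I thus held both ends of the 6, with Mt-nd2 reduced most and Mt-nd5 least. Mt-nd4 was 5.87-fold as high in S-DTMS as in MI, a log2 change of 2.54.

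The median log2 change from MI to S-DTMS was -0.73 for the 7 genes, 0.15 for all rows and -0.23 for the 52 other rows with a mean FPKM of at least 1000. The limit of 1 was passed by 3 of the 7 genes, beside 14.5% of all rows. They were Mt-nd2 at -1.03 and Mt-nd1 at -1.02, just past the limit, beside 5.73% of all rows in the lower direction, and Mt-nd4, beside 8.80% in the higher direction. Mt-cyb lay just short of the limit, at -0.85. All 7 genes passed 0.5, beside 42.9% of all rows. With median-of-ratios scaling, 4 of the 7 genes passed the limit of 1, Mt-cyb being added at -1.03, beside 13.7% of all rows.

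The loaded suture was also read against the plain suture, against SNAP injection and against Normal. In S-DTMS against DTMS all 7 genes were lower, as were 32.6% of all rows. The ratio was 0.462 for Mt-nd5, 0.503 for Mt-nd1, 0.515 for Mt-cyb, 0.519 for Mt-nd2, 0.541 for Mt-co1, 0.599 for Mt-co2 and 0.825 for Mt-nd4. The median log2 change was -0.95, beside 0.25 for all rows. The limit of 1 was passed by Mt-nd5 alone, at -1.12, beside 14.1% of all rows, with Mt-nd1 just short of it at -0.99. With a limit of 0.5, 6 genes passed, beside 44.3%. With median-of-ratios scaling, the same 6 genes passed the limit of 1, beside 12.8% of all rows, and Mt-nd4 stood at -0.56.

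In S-DTMS against SNAP the 7 genes were lower by nearly the same factor. The ratio was 0.501 for Mt-nd2, 0.506 for Mt-nd5, 0.519 for Mt-co2, 0.526 for Mt-nd1, 0.527 for Mt-co1, 0.529 for Mt-nd4 and 0.534 for Mt-cyb. The log2 changes lay between -0.997 and -0.906, and none reached the limit of 1, beside 13.3% of all rows. All 7 passed 0.5, beside 45.1% of all rows, and all 7 passed 1 with median-of-ratios scaling, beside 11.1%. The median over all rows was 0.31, and 28.5% of all rows were lower in S-DTMS, as the 7 genes were. Because FPKM is scaled to the library total, a lower share of the 7 genes leaves a higher share for other rows. The medians over all rows in the comparisons with S-DTMS are therefore not independent of the 7 genes. How much of them this makes up was not tested.

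In S-DTMS against Normal the 7 genes differed in direction. Mt-nd2 was at 0.523 times its Normal level, Mt-nd1 at 0.662, Mt-cyb at 0.710, Mt-co1 at 0.723 and Mt-nd5 at 0.821, whereas Mt-co2 was at 1.10 times and Mt-nd4 at 7.98 times. Mt-nd4 alone passed the limit of 1, beside 10.5% of all rows, and Mt-nd1, Mt-nd2 and Mt-nd4 passed 0.5, beside 32.3%. The comparisons with MI share the MI library, and those with S-DTMS share the S-DTMS library, so their values are not independent. S-DTMS also stood apart across the whole table, with 10.5% to 14.5% of all rows past the limit of 1 in its 4 comparisons and 4.65% to 6.96% in the other 3.

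**Figure D3:**
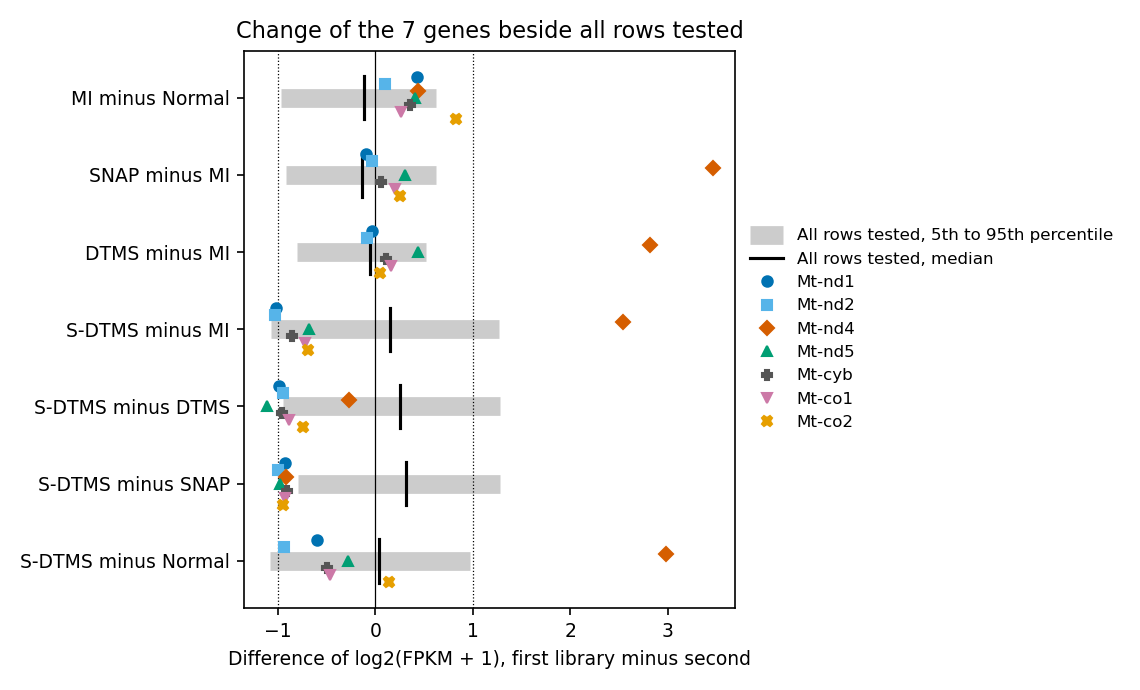
Difference of log2(FPKM + 1) of each of the 7 genes in 7 comparisons (first library minus second), 1 symbol per gene, with grey bars from the 5th to the 95th percentile and black ticks at the median of the 13769 rows tested, and dotted lines at a change of 1 in either direction. In S-DTMS minus SNAP the 7 symbols lie between -0.997 and -0.906, whereas in S-DTMS minus MI Mt-nd4 lies at 2.54 and the other 6 between -1.03 and -0.68.

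Since the genes of 1 library share their scaling, the make-up of the 7-gene sum does not depend on how libraries were scaled. The share of Mt-co2 in the FPKM of the 7 genes was 14.6% in Normal, 20.0% in MI, 21.5% in SNAP, 19.3% in DTMS and 21.3% in S-DTMS. The share of Mt-nd2 ran the other way, at 13.2% in Normal, 10.8% in MI, 9.56% in SNAP, 9.54% in DTMS and 9.16% in S-DTMS. All 4 infarcted libraries, S-DTMS included, thus lay on the same side of Normal for both genes. Within complex IV, the ratio of Mt-co2 to Mt-co1 was 0.348 in Normal and 0.515 in MI, 0.535 in SNAP, 0.477 in DTMS and 0.528 in S-DTMS. Within complex I, the ratio of Mt-nd1 to Mt-nd2 was 0.833 in Normal and between 1.00 and 1.09 in the 4 infarcted libraries.

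The other genes apart from Mt-nd4 kept closer to their Normal shares. Mt-co1 made up 42.0% of the 7-gene FPKM in Normal and between 38.8% and 40.5% in the infarcted libraries. For Mt-cyb the share was 15.9% in Normal and between 14.7% and 15.8% in the others. Mt-nd5 made up 3.22% in Normal, 3.27% in MI, 3.63% in SNAP, 4.11% in DTMS and 3.51% in S-DTMS, and Mt-nd1 between 9.59% and 11.3%. The order of the libraries for Mt-cyb depended on the unit. As a share of the fragments of the 7 genes, Mt-cyb held 14.75% in Normal (95% Wilson interval 14.70% to 14.80%) and 14.81% in DTMS (14.76% to 14.85%), which overlap, and 14.99% in MI, above Normal. For Mt-co2 and Mt-nd2 the intervals of the 4 infarcted libraries did not overlap that of Normal. The same held for Mt-co1, Mt-nd1 and Mt-nd5, so non-overlap does not set Mt-co2 and Mt-nd2 apart. These intervals leave out the variation between rats.

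**Figure D4:**
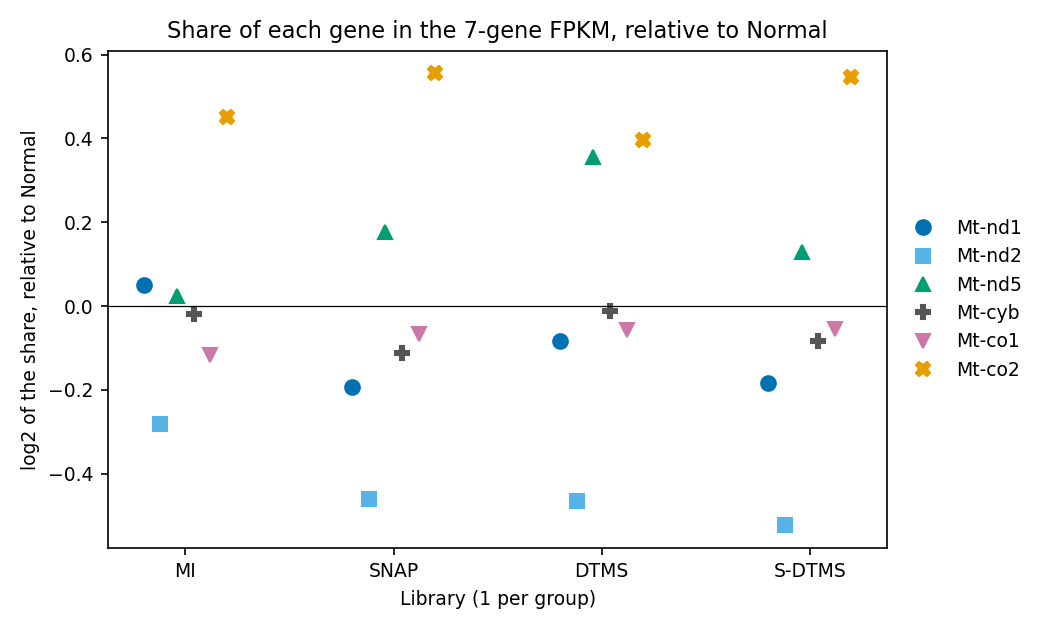
log2 of each gene's share of the 7-gene FPKM relative to its share in Normal, for 6 genes in the 4 infarcted libraries, with Mt-nd4, at 0.07 in MI and between 2.80 and 3.41 in the other 3, left out for scale. Mt-co2 lies at 0.40 to 0.56 and Mt-nd2 at -0.52 to -0.28 in every infarcted library.

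Mt-nd4 held 0.082% of the 7-gene FPKM in Normal and 0.085% in MI, but 0.86% in SNAP, 0.57% in DTMS and 0.86% in S-DTMS. Normal and MI thus formed a low pair, and the 3 treated libraries lay well above it. Set against Mt-nd5, the other complex I gene nearest to it in level, Mt-nd5 had 39.4 times the FPKM of Mt-nd4 in Normal, 38.3 times in MI, 4.25 times in SNAP, 7.26 times in DTMS and 4.06 times in S-DTMS. In fragments, Mt-nd4 had 1735 in Normal, 2313 in MI, 26561 in SNAP, 16387 in DTMS and 13772 in S-DTMS, so that counting error was small, with a standard error of at most 0.046 for its log2 changes. From MI to SNAP and from MI to DTMS its change exceeded that of 99.97% of the rows. How fragments that match more than 1 place in the genome were counted is not given in the sources used here. Mammalian genomes hold nuclear copies of mitochondrial genes, and the part of such copies in the Mt-nd4 values was not tested. At ranks of 1040 in Normal and 678 in MI, Mt-nd4 also lacked the high abundance described above for such messages. Whether its values measure the Mt-nd4 message was not tested.

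The SNAP and S-DTMS libraries had a close make-up of the 7 genes at different levels. To compare make-up, the log2 differences of the genes between 2 libraries were centred on their mean, and the root mean square was taken. It was 0.032 for SNAP and S-DTMS, the smallest of the 10 pairs, although the level differed by 0.94 on the log2 scale. The next pairs were Normal and MI at 0.21, SNAP and DTMS at 0.24, and DTMS and S-DTMS at 0.25. The other 6 pairs, each of Normal or MI with a treated library, lay between 0.97 and 1.24, which rests on Mt-nd4. Without it, the pairs of Normal with a treated library lay between 0.29 and 0.32, that of Normal and MI at 0.22, and those of MI with a treated library between 0.15 and 0.17. Without Mt-nd4, SNAP and S-DTMS differed by 0.033 and were still the closest pair.

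The closeness of SNAP and S-DTMS was not seen in the other abundant rows. Over the 52 other rows with a mean FPKM of at least 1000, the same measure was 1.22 for SNAP and S-DTMS, the second highest of the 10 pairs after MI and S-DTMS at 1.25. Over all other rows tested it was 0.67. Whether the 52 rows include other genes of mitochondrial DNA is not known, because the identifiers could not be paired with names. The counting standard error of the 7 changes between SNAP and S-DTMS was at most 0.015, and the largest gap between them, 0.092, exceeded that. This pair was picked out after the values were seen, and with 1 library per group no test of the difference could be made.

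**Figure D5:**
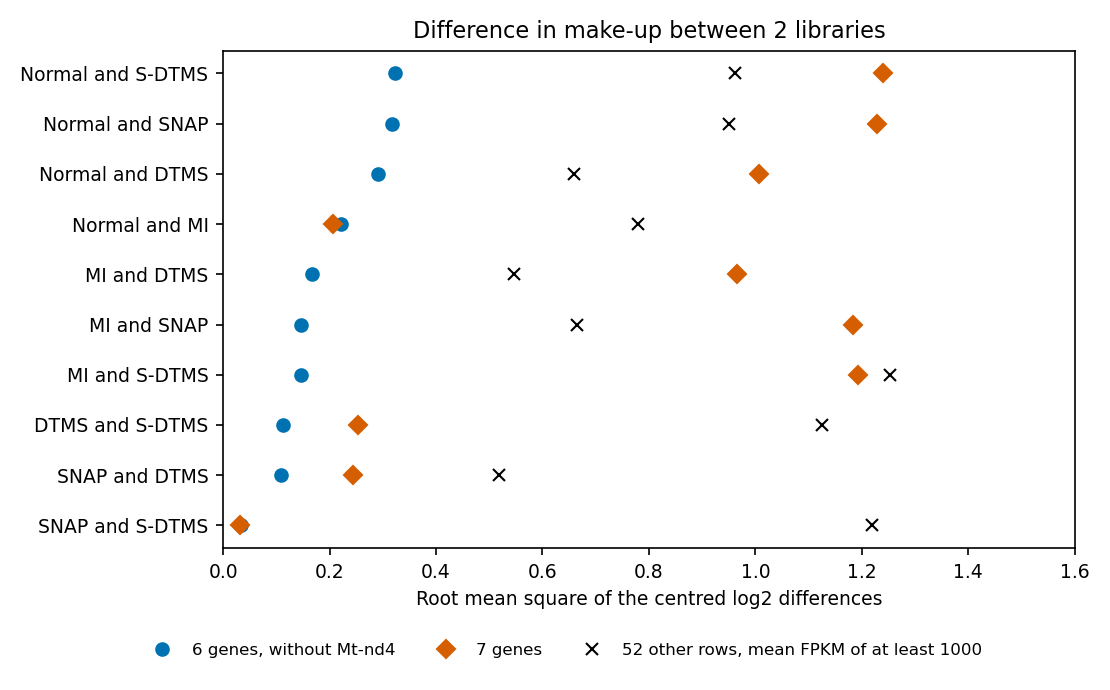
Root mean square of the centred log2 differences between 2 libraries for the 7 genes (diamonds), the 6 genes without Mt-nd4 (circles) and the 52 other rows with a mean FPKM of at least 1000 (crosses), for all 10 pairs. SNAP and S-DTMS are closest for the 7 genes, at 0.032, and far apart for the 52 other rows, at 1.22. The 52 rows could not be named and may include other mitochondrial genes.

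Likeness of pattern was measured as the root mean square difference between log2(FPKM + 1) profiles over the 5 libraries, each centred on its own mean. Among the 7 genes, Mt-co1 and Mt-cyb were most alike, at 0.052, and Mt-nd1 was nearest to Mt-cyb, at 0.063. Mt-nd2 was nearest to Mt-nd1, at 0.14, Mt-nd5 to Mt-co1, at 0.13, and Mt-co2 to Mt-nd5, at 0.19. Mt-nd4 was nearest to Mt-co2, at 1.42. Rows outside the 7 genes were often closer still. Among the 5957 rows with a mean FPKM of at least 10, the number closer to a gene than its nearest member was 231 for Mt-nd4, 54 for Mt-nd2, 16 for Mt-co2, 13 for Mt-nd5, 8 for Mt-nd1, 3 for Mt-cyb and 0 for Mt-co1.

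Measured against the profile of the mean FPKM of the 7 genes, Mt-co1 was at 0.037, Mt-cyb at 0.044, Mt-nd1 at 0.097, Mt-nd5 at 0.13, Mt-nd2 at 0.19, Mt-co2 at 0.20 and Mt-nd4 at 1.56. That mean is dominated by Mt-co1, which brings Mt-co1 near to it. The closest row outside the 7 genes was ENSRNOG00000017481 at 0.028, with an FPKM of 114 in Normal, 157 in MI, 168 in SNAP, 162 in DTMS and 86.1 in S-DTMS. The next was ENSRNOG00000019451 at 0.068, with an FPKM of 36.5 in Normal, 46.5 in MI, 46.0 in SNAP, 49.6 in DTMS and 25.8 in S-DTMS. With 5 libraries, such matches among 5950 other rows are a description only.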

How the data were processed

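Left ventricular RNA of 5 groups of rats was sequenced by the authors on an Illumina NovaSeq instrument, and the table used here holds 1 column per group. The authors deposited FPKM values, normalized for gene length and library total, under rat Ensembl identifiers. The submitters' processing notes name HTSeq and the build mm9, a mouse build, although the samples are rat. The aligner, the annotation and the handling of fragments with several matches are not given in the sources used here. Columns were assigned by the sample descriptions.

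Relative depth was taken from the commonest ratio of low values, and library totals from requiring whole gene lengths, which held within 0.05 for 2589 of 2654 rows tried. Fragments of the 7 genes were whole within 0.01. Changes are differences of log2(FPKM + 1), and counts took a log2 change of at least 1 among rows whose FPKM reached 1 in any library. The recovery of totals and fragments, and the sign and size of log2 changes, were tested on simulated data. Scaling, make-up and likeness of pattern were not tested in this way. Python 3.11.15, NumPy 2.4.6, pandas 2.3.3, SciPy 1.17.1 and Matplotlib 3.10.9 were used.

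The members, lists and comparisons were chosen with earlier results of these data known. By a written rule, all 7 genes were named in every library, and the rows of most similar profile by identifier, at most 2. Lists of nuclear-encoded subunits, other mitochondrial genes and cell type markers were not analysed here, because 0 of the 20646 identifiers could be paired with a name in the reference table. Alternatives were another scaling, pseudocount, filter, limit and denominator.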

Additional observations from a re-analysis of the deposited data

Results flagged for a closer look

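SNAP was injected alone (SNAP against MI) or delivered through the suture (S-DTMS against DTMS), and in 5 of the 7 genes these differences had opposite signs, as they had in 53.3% of all 13769 rows tested. The difference between them, the second minus the first on the log2 scale, was -1.08 for Mt-co1, -0.99 for Mt-co2, -3.73 for Mt-nd4, -1.41 for Mt-nd5 and -1.01 for Mt-cyb, and -1.04 for the sum of the 7 genes. Mt-nd1 and Mt-nd2 were lower in both, with -0.10 and -0.03 for SNAP against MI and -0.99 and -0.95 for S-DTMS against DTMS. Their sign for SNAP against MI depended on the scale. With median-of-ratios scaling it was positive, at 0.09 for Mt-nd1 and 0.16 for Mt-nd2, so that the differences had opposite signs in all 7 genes, beside 45.8% of all rows. For the sum of the 7 genes the log2 difference was 0.15 between SNAP and MI and -0.89 between S-DTMS and DTMS. Read by the suture, the same 4 libraries give the same difference, and 5 genes again had opposite signs, beside 55.2% of all rows, or 7 beside 50.5% with median-of-ratios scaling. The counts with median-of-ratios scaling were added after seeing the data. With 1 library per group the difference was not tested.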

How the results depend on the processing

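The median change of the 7 genes kept its direction in all 7 comparisons under all 5 alternatives. In the order MI against Normal, then SNAP, DTMS and S-DTMS against MI, then S-DTMS against DTMS, SNAP and Normal, it was 0.54, 0.39, 0.22, -0.90, -1.23, -1.29 and -0.50 with median-of-ratios scaling. As TPM it was 0.35, 0.23, 0.14, -0.59, -0.84, -0.82 and -0.38. Scaled to the sum without the 7 genes, it was 0.41, 0.27, 0.17, -0.70, -0.98, -0.97 and -0.43. Without Mt-nd4 it was 0.38 for MI against Normal, 0.13, 0.076 and -0.79 for SNAP, DTMS and S-DTMS against MI, and -0.48 for S-DTMS against Normal. The pseudocount of 0.1 moved none of these medians beyond counting error.

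Genes of the 7 past a log2 change of 0.5 numbered 1 for MI against Normal, 7 for S-DTMS against MI, 6 against DTMS, 7 against SNAP and 3 against Normal. The shares of all rows past 0.5 in the same comparisons were 22.9%, 42.9%, 44.3%, 45.1% and 32.3%. By the median of ratios, 6 passed the limit of 1 for S-DTMS against DTMS, beside 12.8% of all rows, and 7 against SNAP, beside 11.1%. The libraries were divided by 1.13 for S-DTMS, 0.93 for DTMS and 0.88 for SNAP. This scaling therefore lowered the changes of all 7 genes in these comparisons. A pseudocount of 0.1 raised the count over all rows from 958 to 1622 for MI against Normal, 871 to 1749 for SNAP, 640 to 1306 for DTMS and 2000 to 3035 for S-DTMS against MI, 1944 to 3021 for S-DTMS against DTMS, 1834 to 2981 against SNAP and 1448 to 2289 against Normal. With an FPKM of at least 5 and fewer rows tested, 632, 571 and 354 remained for MI against Normal and for SNAP and DTMS against MI.

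The share of the 7 genes in Normal, MI, SNAP, DTMS and S-DTMS was 11.1%, 14.0%, 15.6%, 15.3% and 8.18% of all fragments. It was 14.50%, 18.15%, 20.48%, 19.87% and 11.57% of the rows past the filter. It was 16.6%, 21.6%, 24.6%, 23.6% and 12.8% without the 10 other rows of highest mean FPKM. By fragments, Mt-co2 made up 8.12%, 11.4%, 12.2%, 10.8% and 12.1% of the 7 genes. Mt-nd2 made up 11.1%, 9.40%, 8.24%, 8.14% and 7.89%, and Mt-nd4 0.091%, 0.098%, 0.98%, 0.64% and 0.99%. Fragments weight long genes more, by construction.

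The sum without the 7 genes, the one without the 10 other rows and the medians without Mt-nd4 were chosen after seeing the data. The planned sums without all rows of mitochondrial DNA, and the planned gene lists, were not run, because the identifiers could not be paired with names. Depth did not limit the 7 genes. No paired analysis was possible because only 1 library stands for a group.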
